A study of Mus musculus with 69 samples.

Results

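Naive CD8+ T cells that had been sorted from mice with 3 STAT5 genotypes and cultured with interleukin 7 (IL-7) were compared by RNA-seq, across all genes and then by pathway. They were chosen by their labels and comprise 6 libraries, 2 per genotype, of 48 CD8+ libraries and 69 samples in the series. WT mice were Stat5a+/+ Stat5b+/+, AAB mice Stat5a-/- Stat5b+/- and BBA mice Stat5a+/- Stat5b-/-, so that each deficient genotype kept 1 of the 4 STAT5 alleles, a Stat5b allele in AAB and a Stat5a allele in BBA. The deletions are in the germline of every cell of these mice, and the deficient mice carry 1 chromosome without the whole Stat5a/Stat5b locus. The cells were CD44 low CD62L high, came from pooled lymph nodes and spleen, and were cultured for 12 to 16 h with IL-7. By the study's methods the mice were adult and the replicates of an RNA-seq group were different mice. The labels give neither an age nor the mouse behind each library. The 6 libraries of the same genotypes and cell type without cytokine serve further on as a reference. By the study's methods, cells for RNA-seq were taken directly ex vivo or cultured with IL-7 or IL-15. Libraries without cytokine are thus read as uncultured cells, and IL-7 and the culture itself cannot be told apart.

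IL-7 is a cytokine of the common gamma chain family, made by stromal cells of lymphoid tissue, that keeps resting T cells alive. Its receptor, IL-7R alpha paired with the gamma chain, activates the kinases JAK1 and JAK3, which phosphorylate the transcription factors STAT5A and STAT5B. These near-identical proteins are encoded by neighbouring genes, dimerize, enter the nucleus and bind GAS elements next to target genes such as Cish, whose product feeds back on the receptor, and Bcl2, which blocks apoptosis.

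Depth was 8656442 to 16452403 counts on genes per library, and 10157 of 24309 gene symbols passed the filter on low counts. The unit of level is CPM, a count relative to the TMM-normalized size of its library, and in each sentence the WT libraries come first, then AAB, then BBA. Cd8a was between 1083 and 1264 CPM in all 6 libraries and Cd4 at or below 1.52 CPM, which goes with the CD8 label. The summed level of 6 CD4 T cell genes, of which Foxp3 was the highest, was 30.51 and 21.52 CPM in WT, 22.15 and 26.99 in AAB and 25.23 and 19.65 in BBA. Y-linked genes exceeded Xist in 6 of 6 libraries with IL-7 and in 0 of 6 without cytokine, so that the sex of the mice and the culture cannot be told apart between these conditions. Among markers of other cells, the summed level of 10 B cell genes was 23.8 and 11.6 CPM in WT, 42.9 and 17.3 in AAB and 76.2 and 46.5 in BBA. The summed level of 11 NK cell genes was 8.96, 3.93 and 3.12 CPM in the libraries numbered 1 and 31.0, 26.3 and 38.6 CPM in those numbered 2. That of 13 myeloid genes was 48.6 and 45.7 CPM in WT, 96.9 and 41.7 in AAB and 97.3 and 62.5 in BBA, with Cd14 at 0 in all libraries. Of 9 erythroid and platelet genes 5 were at 0 throughout and the sum stayed at or below 1.23 CPM.

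The Stat5 genes themselves came first, as a check of the genotypes. Stat5a, on the plus strand of GRCm38 chr11:100859351-100885169, was at 72.0 and 32.8 CPM in WT, 1.45 and 2.52 in AAB and 47.9 and 44.0 in BBA. The second WT library thus held 45.5% of the Stat5a level of the first and less than either BBA library, although both are labelled Stat5a+/+. Stat5a was 27.7-fold higher in WT than in AAB (log2 4.79 ± 0.47 SE, adjusted p = 0.0215). In AAB 24 and 22 counts remained, and the annotation has exons of Stat3 on the opposite strand within Stat5a, so reads of both genes cannot be told apart if strand was not used in counting. Between WT and BBA, which differ by 1 Stat5a allele, the log2 difference was 0.19 ± 0.36 (adjusted p = 0.834), positive with both WT libraries and −0.48 without the first.

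Stat5b, on the minus strand of chr11:100780731-100850724, was at 222 and 268 CPM in WT, 110 and 136 in AAB and 79.4 and 83.9 in BBA. It was 3.0-fold lower in BBA than in WT (log2 1.58 ± 0.15, adjusted p = 0.00923) and 1.99-fold lower in AAB, where the test did not pass (adjusted p = 0.0768) but did with the replicate block (adjusted p = 0.0153) and in the fit of 12 libraries described further on (adjusted p = 0.00332). The counts left in BBA, 32.4% and 34.3% of the WT mean, are over the whole gene and do not show which exons they came from. Per kb of merged exons, Stat5b made up 79.9% (95% Wilson interval 78.6 to 81.1) and 91.3% (90.4 to 92.2) of the Stat5 level in the WT libraries, 99.0% and 98.6% in AAB and 68.1% and 71.1% in BBA, with intervals that cover counting error only. Summed per kb, the Stat5 genes gave 50.2 and 53.0 CPM per kb in WT, 20.1 and 25.0 in AAB and 21.1 and 21.3 in BBA. The deficient genotypes overlapped in this sum and both lay below WT. Stat5b reads made up most of the sum in both, although BBA mice are Stat5b-/-. The sum therefore does not give the level of mRNA from intact alleles.

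**Figure D1:**
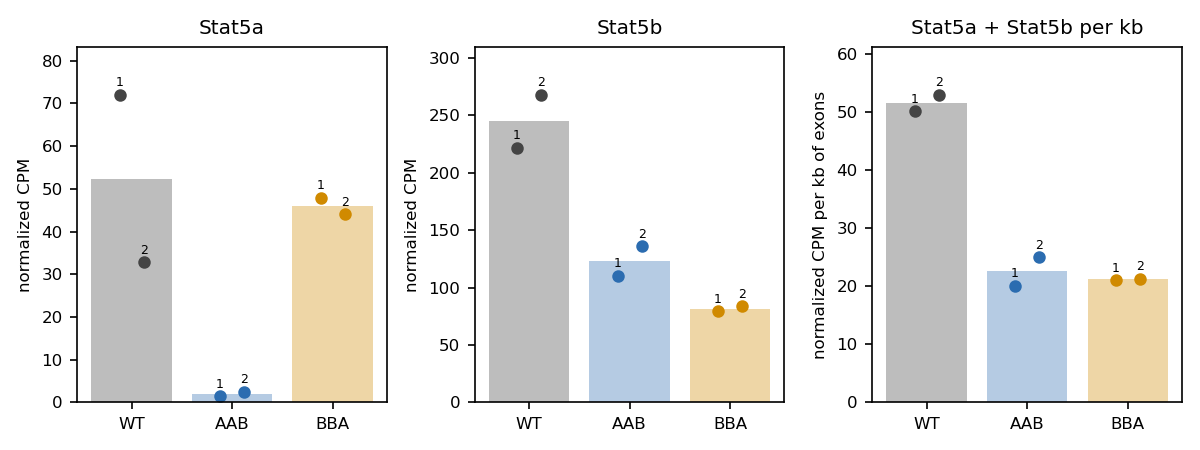
Stat5a, Stat5b (normalized CPM) and their sum per kb of merged exons (CPM per kb) in naive CD8+ T cells with IL-7; bars are means of 2 libraries and points are the libraries with their replicate numbers. The summed level is 50.2 and 53.0 in WT and between 20.1 and 25.0 in AAB and BBA, while WT library 2 has less Stat5a than the BBA libraries.

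The main question was how far loss of each paralog changed the transcriptome. WT and BBA differed in 273 genes, of which 156 were higher in WT (1.54% of genes tested) and 117 higher in BBA (1.15%). WT and AAB differed in 26 genes, 15 higher in WT (0.148%) and 11 higher in AAB (0.108%). AAB and BBA differed in 15 genes, 9 higher in AAB (0.0886%) and 6 higher in BBA (0.0591%). Genes counted as called passed edgeR's quasi-likelihood test at an adjusted p (Benjamini-Hochberg) under 0.05 and differed by over 1.5-fold. Of the WT over BBA calls, 172 exceeded 2-fold and 55 exceeded 4-fold. When the replicate number entered as a block, calls numbered 609 (337 higher in WT, 272 lower), 133 (75 and 58) and 69 (41 and 28). The numbers of calls rest on the spread that all 6 libraries share: WT over BBA gave 9 and 12 calls without WT library 1 or 2, 25 and 24 without BBA library 1 or 2, and 597 and 600 without AAB library 1 or 2. Acat2, Atp10a, Cish, D630039A03Rik, Gm5779, H2-T24, Tnfrsf18 and Vim were called in every one of these fits (Atp10a, H2-T24 and Vim are named here after their values were seen). The comparisons with WT share the WT libraries, so their values are set side by side below and not correlated.

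**Figure D2:**
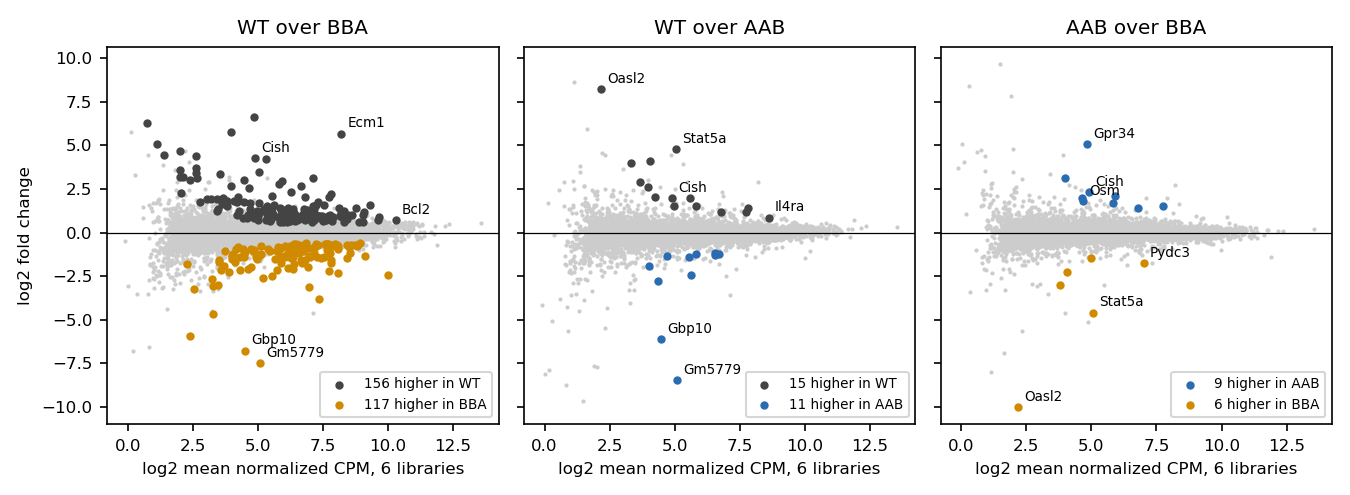
Log2 fold change against the log2 mean normalized CPM of the 6 libraries for the 10157 genes tested, in WT over BBA, WT over AAB and AAB over BBA; grey points were not called and coloured points were called, in the colour of the genotype with the higher level. The calls number 156 and 117, 15 and 11, and 9 and 6, with Cish above 0 in all 3 comparisons and Gm5779 and Gbp10 at the bottom of both comparisons with WT.

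Feedback regulation was led by Cish, which encodes a SOCS family inhibitor of cytokine receptors. It was at 70.0 and 67.3 CPM in WT, 16.4 and 18.8 in AAB and 3.19 and 3.84 in BBA, with no overlap between genotypes. It was 19.5-fold higher in WT than in BBA (log2 4.29 ± 0.18, adjusted p = 0.000595), 3.91-fold higher than in AAB (log2 1.97 ± 0.16, adjusted p = 0.0136) and 4.98-fold higher in AAB than in BBA (log2 2.32 ± 0.18, adjusted p = 0.0226). Without WT library 2, the one with little Stat5a, the first of these was log2 4.32 (adjusted p = 0.0133), while WT over AAB at log2 1.99 (adjusted p = 0.117) and AAB over BBA no longer passed (adjusted p = 0.0818). Cish was the only gene of 20 feedback inhibitors of JAK-STAT signalling called in any comparison. Of all genes, 1.54% were called higher in WT than in BBA. The median log2 of the 20 for WT over BBA was −0.06, beside −0.01 for all genes. Socs2, another STAT5 target in many cells, was at 6.89 and 4.13 CPM in WT, 2.30 and 1.49 in AAB and 1.81 and 1.17 in BBA (WT over BBA log2 1.88 ± 0.52, adjusted p = 0.124). Socs1 and Socs3, which restrain interferon and IL-6 family signalling, were at 101 to 170 and 208 to 311 CPM with overlapping genotypes.

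The promoter of Cish holds 2 matches to the letters of a GAS element, TTCNNNGAA, which reads the same on both strands. The RefSeq window of GRCm38.p6 (chr9:107296409-107296708, plus strand), from 250 bases before to 50 after the start site, is shown with these matches in capitals.
Cish: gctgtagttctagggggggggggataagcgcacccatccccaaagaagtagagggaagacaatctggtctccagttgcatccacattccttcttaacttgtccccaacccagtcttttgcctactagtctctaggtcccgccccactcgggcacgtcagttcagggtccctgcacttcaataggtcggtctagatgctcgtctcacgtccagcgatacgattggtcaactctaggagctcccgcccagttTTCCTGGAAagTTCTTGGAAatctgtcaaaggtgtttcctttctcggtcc

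Cytokine receptors and ligands came next. Il4ra, the IL-4 receptor chain, was at 594 and 554 CPM in WT, 318 and 314 in AAB and 289 and 276 in BBA. It was 2.03-fold higher in WT than in BBA (adjusted p = 0.0097) and 1.81-fold higher than in AAB (adjusted p = 0.0375). Il2ra, the alpha chain of the IL-2 receptor, was at 13.4 and 16.9 CPM in WT, 5.39 and 6.18 in AAB and 3.05 and 5.01 in BBA, and was 3.76-fold higher in WT than in BBA (adjusted p = 0.0365). The groups did not overlap for either gene, and AAB lay near BBA for both. Il7r, the receptor for the added cytokine, was at 642 and 551 CPM in WT, 542 and 790 in AAB and 952 and 1116 in BBA, and no comparison passed in the fit of 6 libraries (WT over BBA adjusted p = 0.102). In the fit of 12 libraries described further on, WT over BBA passed for Il7r (log2 −0.81, adjusted p = 0.0156). Of 12 gamma chain receptors and JAKs tested in the fit of 6, Il2ra and Il4ra were called higher in WT than in BBA, beside 1.54% of all genes. Il4ra was called higher in WT than in AAB, beside 0.148% of all genes, and none was called in the other direction. Of 16 other cytokine receptors tested only Ifngr1, a chain of the interferon gamma receptor, was called. It was at 738 and 665 CPM in WT, 306 and 402 in AAB and 214 and 310 in BBA (WT over BBA log2 1.42 ± 0.21, adjusted p = 0.0263).

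Of ligand and receptor genes of the TNF superfamily, 3 of 16 tested were called higher in WT than in BBA and 0 lower, beside 1.54% of all genes. Lta, which encodes lymphotoxin alpha, was at 86.8 and 66.5 CPM in WT, 11.02 and 16.8 in AAB and 4.79 and 9.08 in BBA, an 11.1-fold difference between WT and BBA (log2 3.47 ± 0.36, adjusted p = 0.00991). Its 5.57-fold difference between WT and AAB did not pass (adjusted p = 0.0584) but did with the replicate block (adjusted p = 0.0195) and in the fit of 12 libraries described further on (adjusted p = 0.0025). Tnf, its neighbour on chromosome 17, was at 22.9 and 24.2 CPM in WT, 12.3 and 6.06 in AAB and 2.39 and 2.11 in BBA (WT over BBA log2 3.38 ± 0.37, adjusted p = 0.0124). Tnfrsf18, which encodes the costimulatory receptor GITR, was at 183 and 174 CPM, 117 and 112 CPM and 46.5 and 39.2 CPM in the same order. It was 4.17-fold higher in WT than in BBA (adjusted p = 0.00258) and 2.67-fold higher in AAB than in BBA (adjusted p = 0.0232), and all 3 genotypes were apart. The median log2 of the 16 genes was 0.21 for WT over BBA and 0.20 for WT over AAB. The Lta window (chr17:35205302-35205601, minus strand) also holds GAS letters, in capitals.
Lta: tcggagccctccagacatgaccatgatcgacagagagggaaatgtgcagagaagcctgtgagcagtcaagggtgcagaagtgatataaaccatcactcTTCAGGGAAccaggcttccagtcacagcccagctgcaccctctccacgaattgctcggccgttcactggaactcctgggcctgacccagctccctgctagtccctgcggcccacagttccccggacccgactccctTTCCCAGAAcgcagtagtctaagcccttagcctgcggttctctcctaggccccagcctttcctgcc

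Osm, which encodes the IL-6 family cytokine oncostatin M, had another order. It was at 28.6 and 26.5 CPM in WT, 39.2 and 37.9 in AAB and 9.57 and 12.2 in BBA. It was 3.54-fold higher in AAB than in BBA (log2 1.82 ± 0.17, adjusted p = 0.0232) and 2.53-fold higher in WT than in BBA (adjusted p = 0.0166), while WT over AAB gave log2 −0.48 ± 0.16 (adjusted p = 0.395). Neb, which encodes the muscle protein nebulin, was ordered in the same way, with 62.8 and 47.1 CPM in WT, 102 and 105 in AAB and 26.5 and 21.8 in BBA (AAB over BBA log2 2.09 ± 0.18, adjusted p = 0.0232). Ralgds, an exchange factor for Ral GTPases, was at 42.7 and 38.3 CPM in WT, 25.7 and 30.3 in AAB and 7.90 and 6.03 in BBA (AAB over BBA log2 2.0 ± 0.20, adjusted p = 0.0255).

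Survival and cell cycle genes changed in a few members. Bcl2 was at 1498 and 1518 CPM in WT, 1261 and 1413 in AAB and 908 and 902 in BBA, 1.67-fold higher in WT than in BBA (log2 0.74 ± 0.12, adjusted p = 0.0327). Bcl2l11, which encodes the pro-apoptotic protein BIM, was also higher in WT than in BBA, with 231 and 235 CPM in WT, 128 and 157 in AAB and 121 and 117 in BBA (1.96-fold, adjusted p = 0.0176). These were 2 of 13 BCL-2 family genes tested, beside 1.54% of all genes called higher in WT than in BBA, and the median log2 of the 13 was 0.21. Mcl1, another survival gene, was at 1014 and 1112 CPM in WT, 687 and 903 in AAB and 738 and 819 in BBA, and passed in no comparison (WT over BBA adjusted p = 0.211). Pim1 was at 335 and 357 CPM in WT, 427 and 364 in AAB and 262 and 252 in BBA, and none of the 3 PIM kinases was called. In the fit of 12 libraries described further on, Pim2 passed for WT over AAB (log2 −0.76, adjusted p = 0.0438). Cdk6, a kinase of the G1 phase, was at 138 and 112 CPM in WT, 49.0 and 35.3 in AAB and 19.9 and 12.4 in BBA (7.69-fold between WT and BBA, adjusted p = 0.00844). E2f2 went the other way, from 6.46 and 10.5 CPM in WT to 33.3 and 26.2 in AAB and 34.9 and 35.6 in BBA (4.18-fold, adjusted p = 0.016). Ccnd2 was at 654 and 574 CPM, 707 and 509 CPM and 518 and 398 CPM and was not called, nor was any of 20 replication and 10 mitosis genes tested.

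Myc and 11 of 38 ribosome biogenesis genes were called lower in BBA than in WT, and none of these was called between AAB and the other genotypes. Myc, the transcription factor that drives ribosome and nucleotide synthesis, was at 400 and 375 CPM in WT, 344 and 276 in AAB and 169 and 120 in BBA. It was 2.69-fold higher in WT than in BBA (log2 1.43 ± 0.19, adjusted p = 0.0189), with log2 0.32 ± 0.19 for WT over AAB (adjusted p = 0.662) and 1.105 ± 0.19 for AAB over BBA (adjusted p = 0.149). Of 38 ribosome biogenesis genes tested, 11 were called higher in WT than in BBA and 0 lower, beside 1.54% of all genes, and their median log2 was 0.65 beside −0.01 for all genes. The WT and BBA libraries did not overlap for 37 of the 38, all higher in WT, beside 55.5% of all genes that did not overlap in either direction. The same 38 genes had a median of 0.13 for WT over AAB and 0.54 for AAB over BBA, with 0 calls in either. Npm1, a nucleolar chaperone, was at 1107 and 1054 CPM in WT, 757 and 734 in AAB and 602 and 557 in BBA (1.87-fold between WT and BBA, adjusted p = 0.0164). Polr1b, a subunit of RNA polymerase I, had the largest fold of the 11, with 98.5 and 97.0 CPM, 67.4 and 72.3 CPM and 47.6 and 34.8 CPM (2.37-fold, adjusted p = 0.0178). Rrp1b, Mybbp1a, Nolc1, Heatr1, Gnl3, Ddx21, Ncl, Nop56 and Wdr75 made up the rest at log2 0.62 to 1.12. Exons of other annotated genes overlap those of Rrp1b, Mybbp1a, Heatr1, Gnl3, Nop56 and Ncl, small RNA genes among them for the last 3, so reads may be shared.

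Of the genes of serine, one-carbon and nucleotide synthesis, 3 of 26 were called higher in WT than in BBA and 0 lower, beside 1.54% of all genes, with a median log2 of 0.48. Impdh2, the rate-limiting enzyme of guanine nucleotide synthesis, was at 193 and 192 CPM in WT, 155 and 110 in AAB and 90.1 and 85.1 in BBA (2.20-fold, adjusted p = 0.0263). Odc1, which starts polyamine synthesis, was at 97.6 and 102 CPM, 91.0 and 62.6 CPM and 43.1 and 46.1 CPM (2.23-fold, adjusted p = 0.0311). Cad, which starts pyrimidine synthesis, was 1.93-fold higher in WT (adjusted p = 0.0456). For AAB over BBA the 26 genes had a median log2 of 0.40 and for WT over AAB one of 0.06, with 0 calls in both. Among 15 transporters tested only Slc7a1, for cationic amino acids, was called (1.62-fold higher in WT than in BBA, adjusted p = 0.0311). Slc7a5, for large neutral amino acids, was at 77.5 and 75.9 CPM in WT, 91.2 and 52.9 in AAB and 43.8 and 29.5 in BBA (WT over BBA adjusted p = 0.115). It passed for WT over BBA in the fit of 12 libraries described further on (log2 1.05, adjusted p = 0.0181). None of 27 glycolysis and pentose phosphate genes was called in these comparisons, with a median of 0.19 for WT over BBA. Of 29 genes of cholesterol and fatty acid synthesis, Acat2, a cytosolic acetyl-CoA acetyltransferase, was at 116 and 111 CPM in WT, 33.4 and 45.5 in AAB and 15.7 and 16.6 in BBA. It was 7.01-fold higher in WT than in BBA (adjusted p = 0.00258) and 2.89-fold higher than in AAB (adjusted p = 0.0276). Acaca, which makes malonyl-CoA, was 1.6-fold higher in WT than in BBA (adjusted p = 0.0388), and the other 27 genes were not called.

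**Figure D3:**
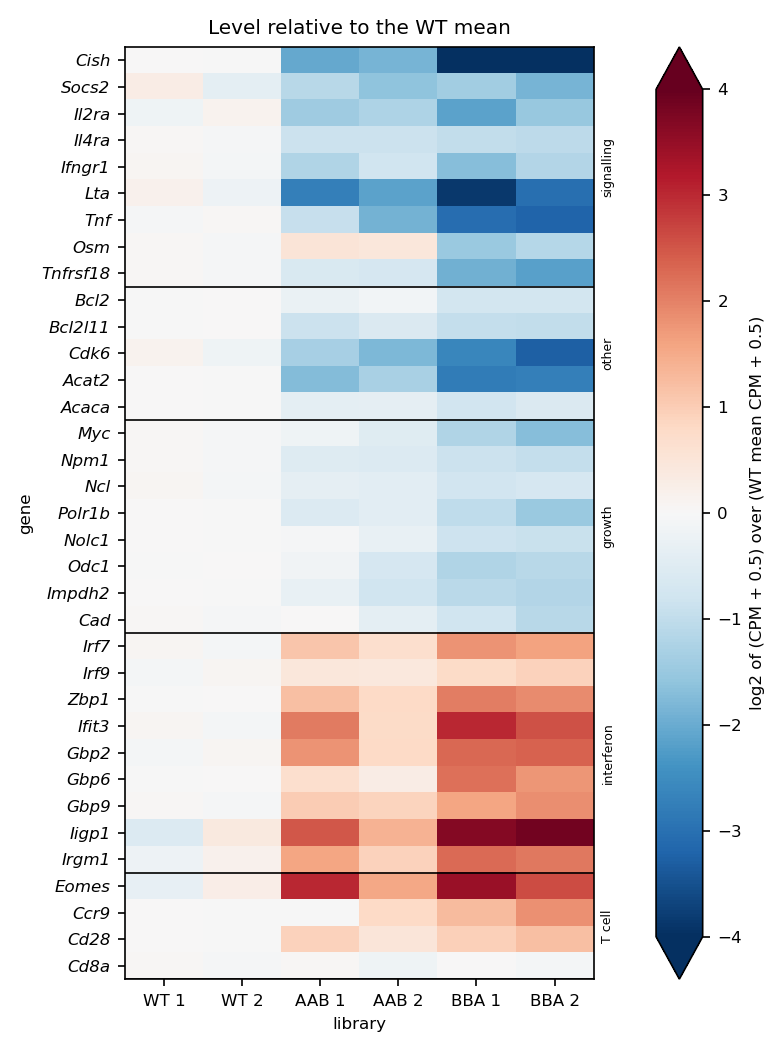
Level of named genes in each of the 6 libraries, as log2 of (CPM + 0.5) over (WT mean CPM + 0.5), with the colour held at ±4; blue is below and red above the WT mean. Cish, Lta, Tnf, Cdk6 and Acat2 are lowest in BBA, Osm is above the WT mean in AAB only, and Zbp1, Gbp2 and Irgm1 are lowest in WT and highest in BBA.

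Interferon-induced genes were higher in BBA than in WT, with antiviral genes and GTPases among them. Type I and type II interferons signal through JAK kinases and transcription factors that bind ISRE and GAS elements and induce antiviral genes and the GTPases of the GBP and IRG families. Stat2, a transcription factor of type I interferon signalling, was at 84.4 and 85.5 CPM in WT and 132 and 150 in BBA (1.66-fold, adjusted p = 0.0333). Irf7, a transcription factor of the interferon response, was at 30.2 and 26.6 CPM in WT, 61.9 and 45.5 in AAB and 101 and 87.6 in BBA (3.31-fold between BBA and WT, adjusted p = 0.0103).

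Of 30 type I interferon-stimulated genes tested, 9 were called higher in BBA than in WT and 0 lower, beside 1.15% of all genes, with a median log2 of −0.88 for WT over BBA. Zbp1, a sensor of left-handed nucleic acid, was at 51.1 and 53.3 CPM in WT, 122 and 90.5 in AAB and 215 and 195 in BBA (3.93-fold, adjusted p = 0.00692). Ifit3, an antiviral effector, was at 2.84 and 2.50 CPM, 12.8 and 4.92 CPM and 25.4 and 18.01 CPM (8.09-fold, adjusted p = 0.0314). The other 7 were Ddx58, Irf9, Dtx3l, Parp9, Xaf1, Irf7 and Rtp4. Parp9 and Dtx3l overlap on opposite strands and share reads if strand was not used. For WT over AAB the 30 genes had a median log2 of −0.42 with 1 call in each direction, and for AAB over BBA −0.45 with 1 call, Oasl2, higher in BBA.

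Of 16 interferon-induced GTPases tested, 13 were called higher in BBA than in WT and 0 lower, beside 1.15% of all genes. For all 16 the WT and BBA libraries did not overlap, beside 55.5% of all genes in either direction. Their median log2 was −1.53 for WT over BBA, −0.69 for WT over AAB and −0.76 for AAB over BBA, and their summed level was 1887 and 1991 CPM in WT, 3570 and 2504 in AAB and 4989 and 5311 in BBA. Gbp2 was at 88.6 and 99.5 CPM in WT, 328 and 163 in AAB and 465 and 489 in BBA (5.08-fold, adjusted p = 0.0179). Irgm1 was at 69.3 and 90.04 CPM, 237 and 151 CPM and 382 and 343 CPM (4.55-fold, adjusted p = 0.0119). Gbp6 was at 32.6 and 33.1 CPM in WT, 53.1 and 40.3 in AAB and 154 and 112 in BBA (4.05-fold between BBA and WT, adjusted p = 0.0097). The GBP genes are close copies in clusters on chromosomes 3 and 5, so counts could be divided among them. Wars, which encodes tryptophanyl-tRNA synthetase and is known to be induced by interferon, was the only 1 of 20 aminoacyl-tRNA synthetases called, 2.23-fold higher in BBA than in WT (adjusted p = 0.028). The B cell marker sum was also highest in BBA, at 76.2 and 46.5 CPM against 23.8 and 11.6 in WT, and all 6 of its tested genes had a lower level in WT (median log2 −1.99, 0 called). The myeloid marker sum was at 97.3 and 62.5 CPM in BBA against 48.6 and 45.7 in WT, with all 8 tested genes lower in WT (median log2 −1.94, 0 called). The part of either in the interferon group was not tested.

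Promoter letters were compared over the RefSeq windows that 7832 of the 10157 tested genes have. The ISRE letters GAAANNGAAA, searched on both strands, were in 22.9% of the 83 windows of genes higher in BBA than in WT, in 1.74% of the 115 windows of genes higher in WT and in 3.83% of all 7832. They were in 9 of 10 windows of the tested interferon-induced GTPases. The GAS letters were in 14.5%, 12.2% and 8.49% of the same sets, and in 6 of 10 GTPase windows. A total of 42 genes held both motifs, which overlapped in 10. These are shares of letters and not binding sites, and no test was made of them. The windows of Gbp2 (chr3:142620413-142620712, plus strand) and Irgm1 (chr11:48871371-48871670, minus strand) show the ISRE letters in capitals.
Gbp2: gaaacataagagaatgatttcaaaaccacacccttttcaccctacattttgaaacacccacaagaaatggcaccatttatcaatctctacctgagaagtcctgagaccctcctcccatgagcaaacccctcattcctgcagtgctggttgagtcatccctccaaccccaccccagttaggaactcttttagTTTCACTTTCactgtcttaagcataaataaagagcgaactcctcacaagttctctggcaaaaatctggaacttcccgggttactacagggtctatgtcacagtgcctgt
Irgm1: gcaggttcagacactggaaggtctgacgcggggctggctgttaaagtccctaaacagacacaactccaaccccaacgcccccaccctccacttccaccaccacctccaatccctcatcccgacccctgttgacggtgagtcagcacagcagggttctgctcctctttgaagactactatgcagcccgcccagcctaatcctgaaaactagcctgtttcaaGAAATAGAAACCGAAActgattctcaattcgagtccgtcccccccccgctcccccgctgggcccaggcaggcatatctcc

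**Figure D4:**
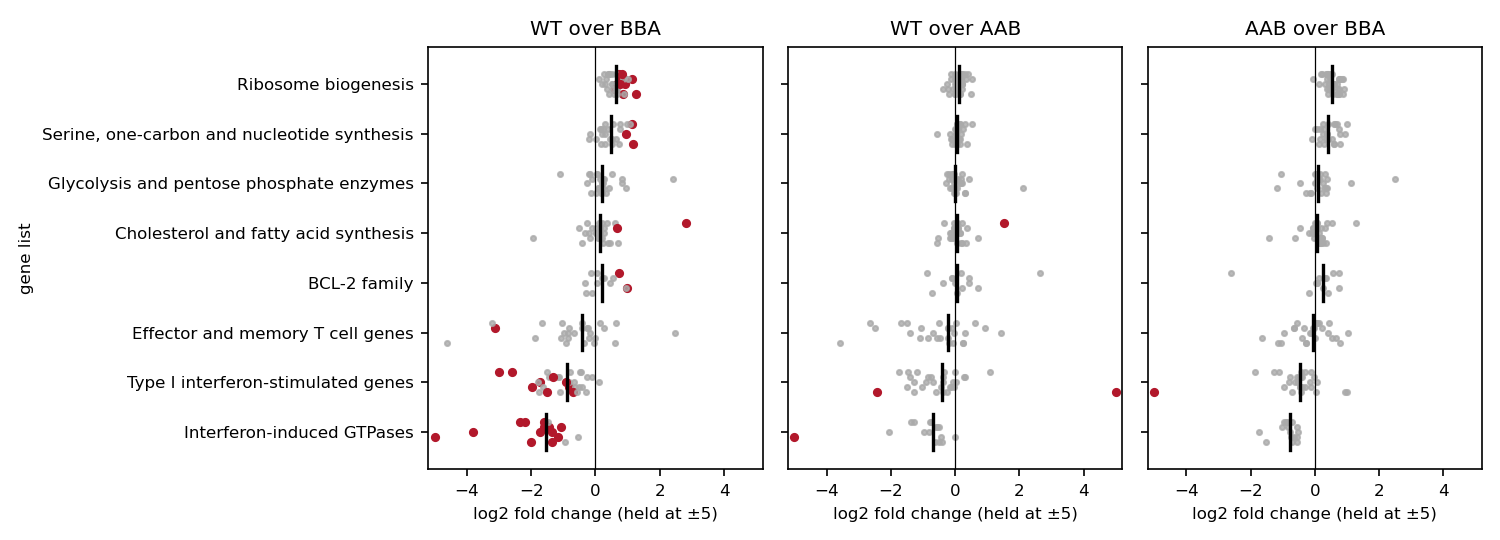
Log2 fold change of every tested member of 8 gene lists in WT over BBA, WT over AAB and AAB over BBA; red points were called, grey points were not, black bars are medians and values beyond ±5 are drawn at the edge. In WT over BBA the medians are 0.65 for ribosome biogenesis, −0.88 for type I interferon-stimulated genes and −1.53 for interferon-induced GTPases.

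T cell identity genes showed few calls. For the lists in this paragraph, the shares over all genes were 1.15% called higher in BBA than in WT and 1.54% called higher in WT. Eomes, a transcription factor of memory and effector CD8+ T cells, was at 19.2 and 29.6 CPM in WT, 199 and 72.6 in AAB and 273 and 150 in BBA (8.69-fold between BBA and WT, adjusted p = 0.0373). It was the only 1 of 27 effector and memory genes called, and the median of the 27 was −0.43 for WT over BBA and −0.23 for WT over AAB. Cxcr3, a chemokine receptor of memory cells that was not called, was at 2.07 and 1.92 CPM in WT, 21.9 and 2.86 in AAB and 24.7 and 12.8 in BBA. Gzmb, the cytotoxic protease granzyme B, was at 10.7 and 3.36 CPM in WT, 2.42 and 2.86 in AAB and 0.218 and 2.35 in BBA, with no call. In bulk samples, a larger share of cells with a gene and more of its RNA per cell cannot be told apart. Of 25 genes of the naive state only Ccr9, a gut homing receptor, was called, at 63.3 and 61.9 CPM in WT, 62.5 and 110 in AAB and 152 and 226 in BBA. Of 23 genes of the TCR complex and its kinases only Cd28, a costimulatory receptor, was called (2.12-fold higher in BBA than in WT, adjusted p = 0.0319). Of 27 immediate early genes and phosphatases, Fos and Ier2 were higher in WT than in BBA (8.69-fold, adjusted p = 0.0488, and 1.81-fold, adjusted p = 0.0263). Neither passed in the fit of 12 libraries described further on (adjusted p = 0.0618 and 0.0778). None of 6 inhibitory receptor and TOX genes was called.

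Outside these groups, several of the largest differences were in genes with a low level in BBA. Gpr34, a receptor for lysophosphatidylserine, was at 78.5 and 49.0 CPM in WT, 19.5 and 24.4 in AAB and 0.145 and 1.17 in BBA (log2 6.61 ± 0.59 for WT over BBA, adjusted p = 0.00791, and 5.06 ± 0.58 for AAB over BBA, adjusted p = 0.0457). D630039A03Rik, an unnamed gene on chromosome 4 annotated as protein coding, was at 44.4 and 35.4 CPM, 5.93 and 6.98 CPM and 0.653 and 0.783 CPM and was, with Cish and Arsb, 1 of 3 genes called in all 3 comparisons. Ecm1, which encodes extracellular matrix protein 1, was at 757 and 785 CPM in WT, 36.4 and 168 in AAB and 13.3 and 16.6 in BBA (51.5-fold between WT and BBA, adjusted p = 0.0166). Fibcd1 was at 14.6 and 14.6 CPM in WT and at most 0.705 in BBA (21.2-fold, adjusted p = 0.00925).

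A smaller set was lowest or highest in AAB. Arsb, a lysosomal sulfatase, was at 41.5 and 33.4 CPM in WT, 1.88 and 2.63 in AAB and 11.7 and 9.40 in BBA, so that it was higher in WT than in AAB (17.0-fold, adjusted p = 0.00799) and higher in BBA than in AAB (4.78-fold, adjusted p = 0.0457). Rnf144a, a ubiquitin ligase, was at 14.6 and 18.8 CPM in WT, 1.39 and 0.572 in AAB and 14.4 and 10.3 in BBA (15.7-fold between WT and AAB, adjusted p = 0.0276). Dst, a cytoskeletal linker, was 7.41-fold higher in WT than in AAB (adjusted p = 0.0217). Oasl2, an interferon-induced gene, had 0 counts in both AAB libraries, 3.10 and 3.07 CPM in WT and 9.57 and 11.4 in BBA. Against 3 counts per library it was at least 11.8-fold higher in WT and at least 39.9-fold higher in BBA than in AAB. Without cytokine, on the totals of the 12-library fit, Oasl2 was at 4.76 and 0.851 CPM in WT, 16.3 and 11.9 in AAB and 14.3 and 11.8 in BBA. Over the 46 other CD8+ libraries, scaled to total counts on genes, it was at 0.0504 to 18.2 CPM. Whether its absence in AAB with IL-7 goes with the particular mice was not tested. Abcg3 was at 18.5 and 11.9 CPM in WT, 2.36 and 3.55 in AAB and 26.5 and 20.8 in BBA (AAB over BBA log2 −3.03 ± 0.33, adjusted p = 0.0364). Pydc3, of the interferon-inducible PYHIN family, was at 87.7 and 87.9 CPM, 60.0 and 78.1 CPM and 211 and 249 CPM (AAB over BBA log2 −1.74 ± 0.16, adjusted p = 0.0232). Slfn9 was at 8.19 and 5.67 CPM in WT, 59.7 and 34.0 in AAB and 7.69 and 7.60 in BBA (6.76-fold higher in AAB than in WT, adjusted p = 0.0375). Without cytokine, on the totals of the 12-library fit, Slfn9 varied within genotypes, at 41.4 and 6.30 CPM in WT, 61.1 and 5.54 in AAB and 7.43 and 4.43 in BBA. Xaf1, an interferon-induced gene, was at 15.6 and 16.9 CPM, 104 and 72.0 CPM and 44.7 and 46.8 CPM (5.41-fold higher in AAB than in WT, adjusted p = 0.0136). Of the 26 genes called between WT and AAB, 20 were also called between WT and BBA in the same direction and 6 were not.

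Gm5779 and Gbp10 were close to 0 in both WT libraries with IL-7. Gm5779, annotated as a transcribed processed pseudogene on chromosome 10 with exons over Gucd1 on the other strand, was at 0.172 and 0.192 CPM in WT, 63.8 and 71.7 in AAB and 28.2 and 40.2 in BBA. WT held 4 counts in all, against 902 in BBA, a ratio of 187 (95% exact counting interval 72.7 to 687). Gbp10 had 8 counts in WT against 1079 in BBA, a ratio of 112 (56.5 to 260). Over the 46 other CD8+ libraries, scaled to total counts on genes, Gm5779 was at 7.85 to 126 CPM, and at 47.2 CPM or more in the 14 other WT libraries. On the same scale the 14 other WT libraries held at least 2.46 CPM of Gbp10, against 0.169 and 0.565 in WT with IL-7, and at least 0.656 CPM of Tmevpg1, against 0.169 and 0.188. The near absence of Gm5779 was thus seen in 2 of 16 WT libraries, those of naive cells with IL-7, and not in AAB or BBA with IL-7. Whether it goes with the particular mice or with WT naive cells in this culture was not tested. Ggt1, nearby on chromosome 10, was at 6.72 and 6.53 CPM in WT, 29.96 and 20.9 in AAB and 17.9 and 15.2 in BBA (3.85-fold between AAB and WT, adjusted p = 0.0375). Tmevpg1, a noncoding RNA beside Ifng, had 4 counts in WT and was at 15.9 and 7.99 CPM in BBA (adjusted p = 0.0319), and Fbxo27 was at 0.862 and 0.480 CPM in WT and 22.8 and 11.7 in BBA (adjusted p = 0.0155). Of 867 tested genes on chromosome 11, which carries the deleted locus, 27 were called between WT and BBA (3.11%, beside 2.69% of all genes), and of 196 within 10 Mb of the Stat5 genes 4 were called, Stat5b among them. Between WT and AAB, 4 of the 867 were called (0.461%, beside 0.256% of all genes), Cd7, Slfn9, Stat5a and Xaf1.

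The 6 libraries without cytokine show which of these differences were present in the same cell type outside the IL-7 culture. The WT over BBA log2 value was more positive with IL-7 than without cytokine in 108 genes (1.05%) and more negative in 144 (1.41%), by an interaction term in the same fit. For AAB the numbers were 21 (0.205%) and 9 (0.0879%). With a replicate block within each condition, which was added after the data were seen, they were 620 genes for BBA and 99 for AAB. In the 12-library fit, WT over BBA without cytokine passed for Bcl2 (log2 1.44, adjusted p = 0.00616, beside log2 0.72 with IL-7). It also passed for Gpr34, Neb, Pydc3 and Gbp6 (log2 3.604, 2.21, −2.304 and −1.16, adjusted p 0.02635, 0.00269, 0.000264 and 0.0165). Tnfrsf18 and Ralgds passed as well (log2 0.78 and 1.04, both adjusted p = 0.0411). Of these, the BBA interaction was called for Tnfrsf18 and Ralgds only. Cish, Ggt1 and Gm5779 also passed and had a called BBA interaction (log2 2.06, 1.15 and 1.40, adjusted p 0.000976, 0.0347 and 0.0391). So did Igfbp4 and Pcsk1 (log2 3.64 and −6.32, adjusted p 0.000292 and 0.00273). Ggt1 and Gm5779 were thus higher in WT than in BBA without cytokine and lower in WT than in BBA with IL-7. Myc, Acat2 and Osm did not pass without cytokine (adjusted p 0.635 or more). Levels in this and the next paragraph are on the totals of the 12-library fit and so differ by a few percent from those above. Sex, culture and IL-7 differ together between the conditions, and whether any of them moved a value was not tested.

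Cish was already ordered by genotype without cytokine, at 15.2 and 11.1 CPM in WT, 9.61 and 9.32 in AAB and 3.10 and 3.17 in BBA, and with IL-7 it was at 66.6 and 64.4, 15.7 and 18.1, and 3.06 and 3.72 CPM. Its WT over BBA difference was larger with IL-7 by log2 2.21 (adjusted p = 0.00553) and its WT over AAB difference by 1.49 (adjusted p = 0.0335). Lta was at 13.1 to 18.5 CPM in all 6 libraries without cytokine and at 82.6 and 63.7 CPM only in WT with IL-7 (interaction log2 3.47 for BBA, adjusted p = 0.00541, and 2.71 for AAB, adjusted p = 0.025). Cdk6 was at 10.4 to 18.6 CPM without cytokine, and with IL-7 at 131 and 107 in WT, 46.9 and 34.0 in AAB and 19.1 and 12.0 in BBA (interaction log2 3.12 for BBA, adjusted p = 0.0102). Il4ra was at 286 and 319 CPM in WT without cytokine, below the 345 to 372 CPM of AAB and BBA, and at 565 and 531 CPM with IL-7, above their 268 to 305. Its interaction was called for both genotypes (log2 1.22, adjusted p = 0.00182, and 1.15, adjusted p = 0.00497). Ribosome biogenesis genes had a median interaction of log2 0.46 for BBA, with 5 of 38 called more positive, beside 1.05% of all genes, and 0.08 for AAB, with 0 called.

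For interferon-induced genes the effect of BBA differed between the conditions as well. Gbp2 was at 196 and 160 CPM in WT without cytokine and 84.3 and 95.3 with IL-7, and in BBA at 297 and 252 without and 446 and 475 with IL-7 (interaction log2 −1.73, adjusted p = 0.0383). Zbp1 was at 119 and 110 CPM in WT without cytokine and 48.6 and 51.1 with IL-7, and in BBA at 174 and 157 and at 206 and 189 CPM (interaction log2 −1.45, adjusted p = 0.0101). In AAB Zbp1 was at 201 and 174 CPM without cytokine and 117 and 87.1 with IL-7, and its interaction was not called. Of 16 interferon-induced GTPases, 5 were called for BBA, beside 1.41% of all genes, all larger on the side of BBA with IL-7, with a median of −0.98. For AAB 1 was called, beside 0.0879% of all genes, with a median of −0.10. Gbp10 and Gm5779 were at 26.6 to 35.7 and 58.1 to 80.6 CPM in WT without cytokine, against at most 0.552 CPM in WT with IL-7.

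**Figure D5:**
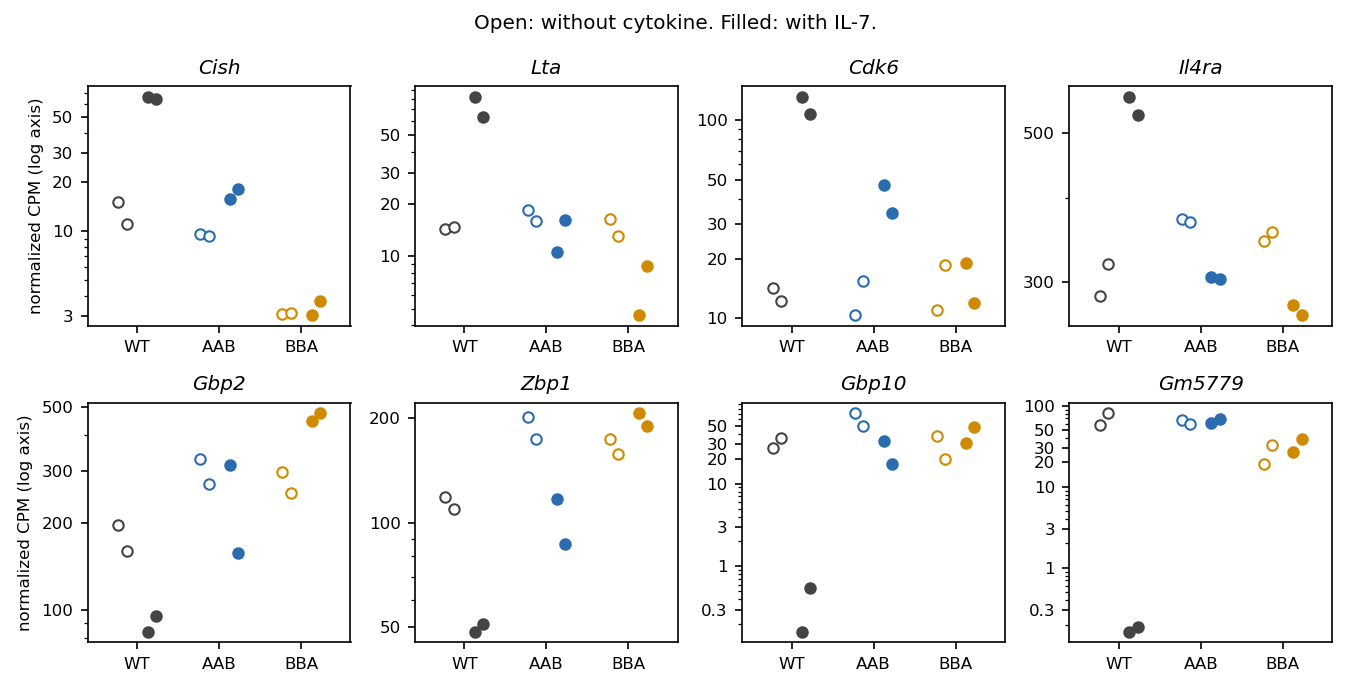
Normalized CPM (log axes, totals of the 12-library fit) of 8 genes in WT, AAB and BBA naive CD8+ T cells without cytokine (open points) and with IL-7 (filled points), 2 libraries each. Lta and Cdk6 are alike without cytokine and highest in WT with IL-7, Gbp2 and Zbp1 are lowest in WT with IL-7, and Gbp10 and Gm5779 are below 1 CPM only there.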

How the data were processed

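The count table was made by the authors, who according to the study's methods and per the labels sequenced poly(A)+ RNA as single-end 50 bp reads, aligned them with TopHat2 and deposited whole-number counts per gene symbol from HTSeq, not normalized. The labels name mm9 and the methods mm10 as the genome. Which annotation was counted, and whether by strand, is not given in the sources used here. Tables of CD4+ and retrovirus libraries were not used. Positions and exon lengths come from GENCODE (GRCm38), which matched all but 370 of the 24309 symbols.

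The 3 genotypes were fitted together in edgeR 4.0.16 (R 4.3.3) by the legacy quasi-likelihood method after TMM scaling, without a block. Genes were kept by a re-implemented HTSFilter rule (threshold 55.4 normalized counts for 6 libraries, 68.6 for 12). Calls needed more than 1.5-fold and a Benjamini-Hochberg adjusted p under 0.05. All log2 fold changes are on the TMM scale, errors are SE, and intervals and floors (3 counts) cover counting error only. Same-numbered libraries deviated together over the genes tested (r = 0.151 for WT and AAB, 0.193 for WT and BBA, 0.364 for AAB and BBA), so the numbers were taken to pair libraries, a hint from the data and not from the design, and block counts stand beside the main ones. Replicates of each genotype differed by more than sampling noise (chi-square over degrees of freedom 7.41 to 35.2).

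Named genes were 21 genes of IL-7 and interferon biology, up to 5 genes per direction and comparison with the largest fold among calls with at least 50 normalized counts and no overlap, called members of 25 gene lists, and up to 3 genes per direction for each interaction. Of the 94 named genes, 36 have exons that overlap those of another gene, Cish among them, and share reads with it where strand was not used. The members and lists were chosen with earlier results of these data known. Alternatives were filterByExpr or no filter, DESeq2 size factors, DESeq2 1.42.0, the edgeR 4 quasi-likelihood, a block, Bonferroni adjustment, a 2-fold limit, one fit of all 48 libraries and leaving out each library. The method was tested on simulated counts.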

Additional observations from a re-analysis of the deposited data

Results flagged for a closer look

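The results below were set apart because a genotype effect differed between culture with IL-7 and the cells without cytokine, by an interaction term in edgeR's quasi-likelihood test (adjusted p under 0.05 and more than 1.5-fold). The BBA effect differed in 252 genes. Where WT over BBA was more positive with IL-7, the largest values were log2 6.66 for D630039A03Rik, 5.39 for Ecm1 and 5.38 for Pcsk1. Pcsk1, a prohormone convertase, differs from the other 2 in its levels, at 2.79 and 3.31 CPM in WT and 8.13 and 3.57 in BBA with IL-7, and at 0.0744 and 0.227 in WT and 9.49 and 17.3 in BBA without cytokine. Where WT over BBA was more negative with IL-7, they were −8.89 for Gm5779, −6.93 for Gbp10 and −4.10 for Mnda. Mnda, a PYHIN family gene, was at 1.34 and 0.115 CPM in BBA without cytokine and 3.53 or less in WT with IL-7.

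The AAB effect differed in 30 genes. The largest values were log2 10.72 for Oasl2, 4.11 for Rgs1 and 3.55 for Arsb, and −8.61 for Gm5779, −5.197 for Gbp10 and −2.22 for Igfbp4. The value for Oasl2 depends on the prior count, because both AAB libraries with IL-7 had 0 counts. Rgs1, which encodes a regulator of G protein signalling, was at 97.9 and 105 CPM in WT with IL-7, at 10.6 or less in AAB and BBA with IL-7, and at 11.3 to 18.7 CPM in all libraries without cytokine. Igfbp4, a binding protein of insulin-like growth factors, was at 828 and 750 CPM in WT, 283 and 239 in AAB and 59.2 and 67.3 in BBA without cytokine, and at 239 and 235, 449 and 277, and 115 and 66.7 CPM with IL-7. Sex, culture and IL-7 cannot be told apart between the conditions. For Gm5779, both interactions rest on 2 WT libraries with IL-7 that are near 0 while the 14 other WT CD8+ libraries are not, and whether this goes with the particular mice was not tested. Groups of 2 libraries were not tested for outliers.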

How the results depend on the processing

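In order, the numbers of calls for WT over BBA, WT over AAB, AAB over BBA and the interactions of the BBA and AAB effects were 273, 26, 15, 252 and 30. Without a filter on low counts they were 1001, 566, 421, 926 and 471, and with DESeq2 607, 243, 152, 523 and 163. Bonferroni adjustment left 9, 2, 2, 10 and 5. The 2-fold limit left 172 for WT over BBA and 156 for the BBA interaction. One fit of all 48 libraries gave 632, 187 and 116 for the first 3, and a replicate block 609, 133 and 69. The block within each condition, added after the data were seen, gave 620 and 99 for the interactions. All 273, 26 and 15 genes were also called with the block and with DESeq2. Other settings stayed within 1.5 times. Leaving out 1 library gave 9 to 600, 1 to 188, 0 to 83, 24 to 544 and 5 to 215 calls. Calls were fewest without WT library 1 with IL-7 (9, 1 and 0, the last also without either BBA library) or without WT library 1 of the cells without cytokine (24 and 5, the last also without WT or AAB library 2 of these cells), and most without AAB library 2 with IL-7. The count of 0 for AAB over BBA compares with 851 genes at an unadjusted p under 0.05 and 152 calls by DESeq2 on all 6 libraries. Where an arm kept 1 library it was assumed to vary like the others. Of the 157 called values of named genes, none changed direction in any setting. However, 136 and 122 were no longer called without WT library 1 or 2 with IL-7, 93 and 95 without BBA library 1 or 2, 11 and 0 without AAB library 1 or 2, 35 in the 48-library fit and 1 with the block. Of 48 values not called, 7 passed with the block, 12 with DESeq2 and 6 in the 48-library fit, Stat5b and Lta for WT over AAB in all 3.

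Values of genes of the fixed list that were not called changed sign when 1 library was left out, with these ranges of log2: Stat5a −0.48 to 0.65, Socs1 −0.16 to 0.0182, Socs3 −0.21 to 0.0488 and Cd8a −0.0102 to 0.10 for WT over BBA; Socs1 −0.53 to 0.22, Socs3 −0.45 to 0.12, Il7r −0.41 to 0.14, Ccnd2 −0.20 to 0.27, Cd8a −0.058 to 0.16 and Slc7a5 −0.25 to 0.53 for WT over AAB; Socs1 −0.30 to 0.45, Socs2 −0.0109 to 0.72, Socs3 −0.22 to 0.36, Mcl1 −0.18 to 0.21 and Cd8a −0.13 to 0.10 for AAB over BBA. The Stat5b share of Stat5 reads in WT was 85.6% per kb and 82.3% from raw counts. The causes were not tested.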

Other observations

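Without WT library 2, which held less Stat5a than the BBA libraries, 12 genes were called between WT and BBA, 9 of them higher in WT. At these 12 genes WT library 2, which took no part in that fit, lay on the side of WT library 1 in all cases, and the median gene kept 93.9% of the log2 distance from BBA to WT library 1.

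The NK cell gene Gzma, a protease, was at 3.88 and 16.0 CPM in WT, 0.121 and 10.98 in AAB and 0.435 and 16.2 in BBA, higher in the library numbered 2 in 3 of 3 genotypes.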
